A study of Oncorhynchus mykiss with 6 samples.

Results

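Among the small RNAs of rainbow trout skin, 168 predicted mature miRNAs were scarce and had a sequence that no other listed entry shared. They were chosen from 1939 listed entries by 3 criteria, which were that the authors mark the entry as predicted, that its sequence stands in 1 entry only, and that its mean over the 6 libraries was at least 1 and below 10 TPM (the authors' read count scaled to library size). The table holds 1230 predicted entries and 709 with known names, and 681 of the predicted entries have a unique sequence. Of these, 24 were more abundant than the chosen ones and 489 stayed under 1 TPM. The level chose the members, so levels are given as a description. Just inside the lower bound lay m0431-5p at 1.03 TPM and m0512-3p at 1.05 TPM, and just below it m0467-3p at 0.996 and m0335-5p at 0.993 TPM. At the upper bound m0055-5p had 9.87 and m0079-3p had 9.23 TPM, while m0074-5p, just above 10 TPM, and m0064-3p, at 11.7 TPM, fell outside. Identifiers are the authors', printed without the prefix that marks a predicted entry.

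The series set out to pair miRNAs with mRNAs that may bear on skin colour in rainbow trout (Oncorhynchus mykiss). Small RNA from dorsal skin of fish aged 45 days was sequenced from 3 libraries of black-skinned wild-type fish (WR) and 3 libraries of the yellow mutant (YR). The sources used here give neither the mutated gene nor the number of fish behind each library. As separate fish are not stated, the spread that enters each p-value is that between libraries and may be technical. Library totals ran from 8245698 to 10336991 counts, so that 1 read stood for 0.101 to 0.127 TPM.

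A miRNA is cut from a hairpin transcript, first by Drosha in the nucleus and then by Dicer in the cytoplasm. The strand from the side of the hairpin that is transcribed first is called 5p and its partner 3p, and the strand that Argonaute keeps pairs with target mRNAs mainly through its seed, bases 2 to 8. A predicted miRNA is a sequence that software placed in a hairpin from the reads and the genome, and its product and targets have usually not been tested.

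The 13 members whose counts differed between WR and YR, described below, are printed here so that their seeds can be compared. Sequences are from the deposited table, 5′ to 3′, with T for U and the seed in capitals. The first 9 were lower in YR and the last 4 higher.
m0079-3p: tTGCAGCTcttacactgtggac
m0300-3p: cACTATGTagggaatagggcac
m0307-3p: gCGACCCAcccatgatttcagt
m0270-3p: cCTCTGGGaccgtggtatcact
m0329-3p: tAAGCACTctgtccatatgaat
m0097-5p: tCTAGGATcaggttaccataac
m0280-3p: tCATAGCGcaaaccaatctgga
m0213-5p: cTGGAACCagattaagcataga
m0120-3p: gTCCCGGGgaccagaaccatt
m0113-3p: gCGACCCActcatgatttcaga
m0500-3p: cTCACTGGggccttgattt
m0153-5p: tTGCTGGTggcactgtctatga
m0224-5p: tTCCCTATgtagtgcactattt
The seed CGACCCA stands in m0307-3p, which was lower in YR, and in m0113-3p, which was higher. It is also the seed of the known miR-551-y (log2 fold change 0.39, edgeR adjusted p = 0.364) and miR-551-z (1.04, edgeR adjusted p = 0.136). m0270-3p has the seed of the known miR-326-y and miR-330-x, both under 1 TPM.

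The members had the size of Dicer products. Of the 168, 92 were 22 bases long, 33 were 21 and 32 were 23, so 157 (93.5%) had 21 to 23 bases. That share was 91.7% in the abundant predicted entries of unique sequence, 93.4% in predicted entries of repeated sequence and 76.3% in known entries. The shortest, m0500-3p and m0188-3p, had 19 bases. The 25-base m0457-3p was the richest in G and C, at 76%, against a median of 45.5% over the members and a lowest value of 27.3%.

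By their identifiers, 98 members (58.3%) came from the 5p arm and 70 from the 3p arm. The 5p share was 37.5% in the abundant entries of unique sequence, 54.6% in entries of repeated sequence and 48.7% in those under 1 TPM. No predicted number in the table has both arms listed, so for no member could the 2 strands of a hairpin be compared. A first T, the base that Argonaute proteins of animals often favour as U, stood in 85 members (50.6%), C in 37, A in 32 and G in 14. The arms were close in this, with a first T in 50 of 98 5p members (51.0%) and 35 of 70 3p members (50.0%). In known entries the share with a first T was 42.6%. It was 48.8% in predicted entries of repeated sequence, 46.8% in those under 1 TPM and 45.8% in the abundant entries of unique sequence.

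**Figure D1:**
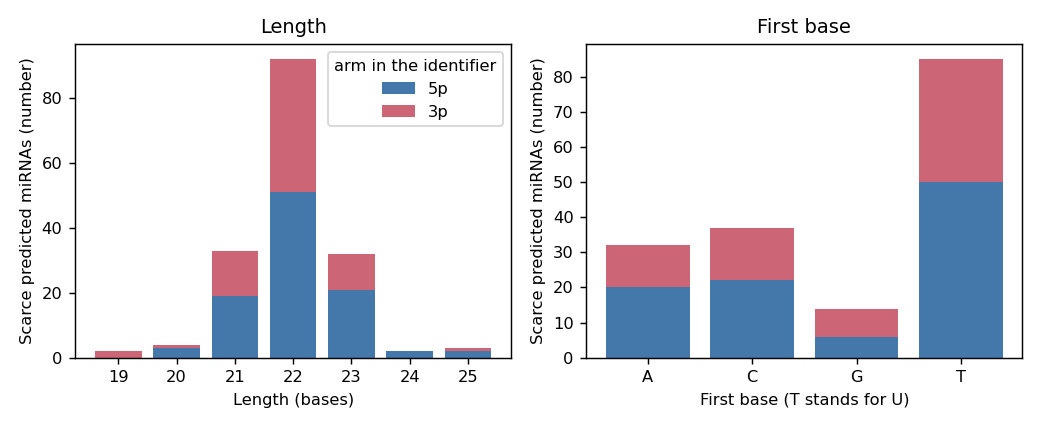
Number of the 168 scarce predicted miRNAs (vertical axis) by length in bases (left) and by first base (right), with 5p members in blue and 3p members in red stacked above them. The tallest bars are 22 bases, with 92 members, and T, with 85 members.

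Most members rested on few reads. Mean levels had a median of 2.06 TPM, with quartiles of 1.41 and 3.68, and 78 members lay from 1 to 2 TPM, 62 from 2 to 5 and 28 from 5 to 10. The median member had 18, 22 and 19 reads in WR1, WR2 and WR3, and 19, 16 and 19.5 in YR1, YR2 and YR3. Together the members held 4637, 5130 and 4836 reads in WR and 4357, 3640 and 4283 in YR. As a share of all counts that was 0.0536, 0.0561 and 0.0525% in WR and 0.0425, 0.0441 and 0.0414% in YR. Every YR share was below every WR share, with means of 0.0540% ± 0.00182 and 0.0427% ± 0.00136 (SD, n = 3 each). Such shares rest on library totals alone. On that scale the median log2 fold change (YR against WR) was -0.29 for the members and -0.26 for all tested entries, so the lower shares are not particular to the members. No test was run on these sums.

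The rule on mean level largely sets detection, since its lower bound of 1 TPM is worth several reads, so the shares here describe the members and are not a finding. In all 6 libraries, 162 members (96.4%) had at least 1 read, against 95.8% of the abundant entries of unique sequence, 67.6% of predicted entries of repeated sequence, 64.7% of known entries and 42.5% of those under 1 TPM. The members at 0 numbered 1, 0 and 1 in the WR libraries and 4, 4 and 3 in the YR libraries. The 6 exceptions were m0079-3p, m0300-3p and m0307-3p, read in 3 libraries, m0113-3p, read in 4, and m0270-3p and m0394-5p, read in 5. No member drew more than 47.2% of its reads from 1 library. The median coefficient of variation among replicates was 27.0% in WR and 24.4% in YR, the latter over the 165 members with reads there. Counting error worked out from the mean count had medians of 22.7% and 23.1%. A coefficient from 3 libraries tends to fall below the true one. How near the replicates came to counting error is therefore not read from these values.

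**Figure D2:**
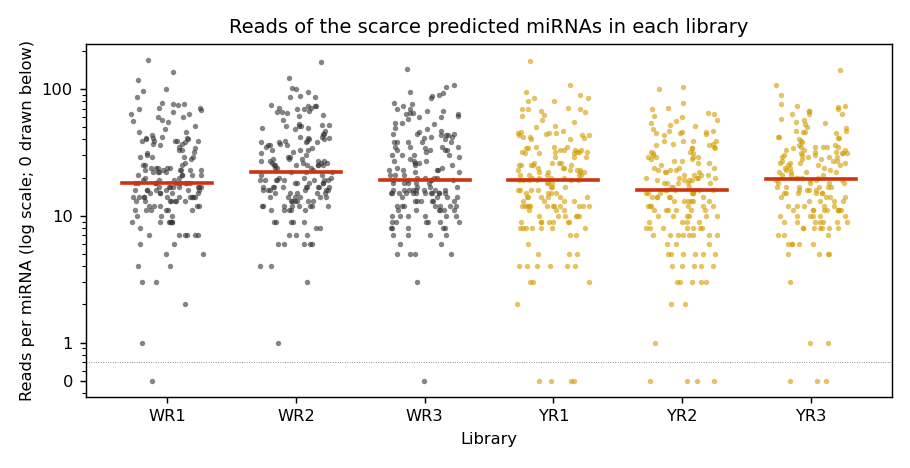
Reads of each of the 168 scarce predicted miRNAs in each library, on a log scale with 0 drawn below the dotted line, WR in black and YR in yellow. The red bars are medians, which lie between 16 and 22 reads.

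WR1 stood apart in the table as a whole. Names of the miRNA cluster that is imprinted in placental mammals summed to 36954 counts there and to 700 to 1203 in the other libraries. Among the members, 2 were more than 2 times as high in WR1 as in both other WR libraries, against 142 of the 834 entries tested. In the other direction, 11 members were more than 2 times lower in WR1 than in both, against 45 of the 834. The same count was 5 for WR2 and 6 for WR3, against 9 and 90 of the 834. Within YR it was 7 for YR1, 13 for YR2 and 3 for YR3, against 15, 39 and 24 of the 834. Low members were thus not particular to WR1. Epidermal names (miR-203, miR-205 and miR-200, 9 of 9 entries read) summed to 78696 to 84245 TPM in WR and 63524 to 75080 TPM in YR. By TPM every YR library was thus below every WR library. TPM is scaled to library size alone, and with library totals alone the median log2 fold change (YR against WR) of all tested entries was -0.26. The liver marker miR-122, the only entry of its list, had 38.8 to 51.8 TPM in WR and 5.33 to 12.9 TPM in YR. Pigment cell names (miR-204 and miR-211) summed to 65616 to 83984 TPM in WR and 65207 to 87205 TPM in YR. Skeletal muscle names summed to 17320 to 22073 TPM in WR and 13007 to 24428 TPM in YR. Red blood cell names summed to 236 to 472 TPM in WR and 227 to 393 TPM in YR. The pigment cell, muscle and blood sums overlapped between groups. The part of any list in the differences below was not tested.

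Between WR and YR, 13 of the 168 members changed, 9 being lower and 4 higher in YR, by edgeR's quasi-likelihood test at a Benjamini-Hochberg adjusted p under 0.05 over 834 entries. The members called were 7.74%, where the background over all 834 was 5.28% (3.12% lower, 2.16% higher). Some called members reached 1 TPM in 1 group only, and of the 129 that reached it in both groups 5 were called. The share of 7.74% is therefore not read as a trait of the members. In the other classes the called share was 2.34% of known entries, 7.94% of entries of repeated sequence and 16.7% of abundant entries of unique sequence, or 4 of 24. Entries of repeated sequence, and so the background, count some sequences more than once. With 1 entry per distinct sequence, 9 members and 21 entries in all were called, against 13 and 44. The differences between classes were not tested. Of the called, 9 were among the 70 3p members, 7 of them lower, and 4 were among the 98 5p members, 2 in each direction. The called share by arm over all tested entries was not computed, so no difference between arms is read from these counts. In bulk tissue, fewer cells of a type and less RNA per cell cannot be told apart.

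The count of called members rested on which libraries entered and on whether a replicate block was fitted. It was 28 without WR1, where the background rose to 14.1%, and all 13 were among them. It was 0 without WR2 (33 at an unadjusted edgeR p under 0.05), 2 without WR3, 1 without YR1, 7 without YR2 and 3 without YR3. With a replicate block, which ties libraries of the same number, it was 0 (40 at an unadjusted edgeR p under 0.05). With library totals alone in place of TMM scaling, 10 lower and 1 higher member passed, and m0153-5p was the only one of the 4 higher members that kept its call. That scaling put the median log2 fold change of all tested entries at -0.26 and of the members at -0.29, where TMM gave -0.03 and -0.05. All 13 kept their sign in every alternative that tested them. The groups did not overlap by TPM in any of the 13, so a turned sign was unlikely from the start.

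In all, 3 members were read in every WR library and in no YR library. The most abundant was m0079-3p, with 169, 162 and 144 reads in WR1, WR2 and WR3 and 0 in each YR library, or 18.5 ± 2.13 TPM (SD, n = 3) against 0. The groups lay far apart, and against a floor of 3 counts over the YR group, after TMM scaling, it was at least 144-fold lower in YR (edgeR adjusted p = 0.00387). Of all called members it held its call most often, in 14 of 16 alternatives. m0300-3p had 23, 17 and 30 reads in WR and 0 in YR, at least 21.2-fold lower (edgeR adjusted p = 0.0218). m0307-3p had 25, 21 and 23 reads in WR and 0 in YR, at least 20.9-fold lower (edgeR adjusted p = 0.0201). Both were thus present at low and even levels across WR.

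A pair of 3p members was near 0 in YR. m0329-3p had 41, 53 and 38 reads in WR and 4, 2 and 1 in YR, or 5.12 ± 0.897 against 0.255 ± 0.155 TPM (log2 fold change -4.05, SE 0.42, edgeR adjusted p = 0.00981). m0270-3p had 40, 40 and 44 reads in WR and 0, 4 and 1 in YR, or 4.81 ± 0.201 against 0.203 ± 0.269 TPM (log2 fold change -4.35, SE 0.82, edgeR adjusted p = 0.0368). In both, the lowest WR library stood well above the highest YR library.

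The other 4 lower members had 5 or more reads in every YR library. m0097-5p had 60, 74 and 73 reads in WR and 14, 10 and 13 in YR, a log2 fold change of -2.34 (SE 0.25, edgeR adjusted p = 0.00981). m0280-3p had 24, 32 and 24 reads in WR and 7, 5 and 7 in YR, a change of -1.92 (SE 0.29, edgeR adjusted p = 0.0218). The libraries of each group were close together and the groups did not overlap. m0213-5p had 29, 33 and 33 reads in WR and 11, 7 and 10 in YR, a change of -1.62 (SE 0.26, edgeR adjusted p = 0.0241). m0120-3p, the most abundant of these in YR, had 117, 123 and 107 reads in WR and 46, 39 and 33 in YR, a change of -1.41 (SE 0.22, edgeR adjusted p = 0.0241).

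Among the higher members, m0113-3p was the extreme. It had 0, 6 and 0 reads in WR and 166, 39 and 141 in YR, or 0.229 ± 0.397 against 12.1 ± 6.32 TPM (log2 fold change 5.84, SE 1.19, edgeR adjusted p = 0.0449). YR2 was well below the other YR libraries but above every WR library. m0153-5p had 14, 9 and 6 reads in WR and 45, 37 and 49 in YR (log2 fold change 2.32, SE 0.34, edgeR adjusted p = 0.0201), with YR values of 4.75 ± 0.160 TPM that varied little. The 19-base m0500-3p had 4, 3 and 3 reads in WR and 22, 7 and 20 in YR (log2 fold change 2.35, SE 0.47, edgeR adjusted p = 0.0409). m0224-5p had 11, 9 and 7 reads in WR and 26, 20 and 24 in YR (log2 fold change 1.51, SE 0.27, edgeR adjusted p = 0.0312). YR2, the library with the smallest total, had the fewest YR reads for both. By TPM it was lowest for m0500-3p only, as m0224-5p had 2.67, 2.54 and 2.41 TPM in YR1, YR2 and YR3. The groups did not overlap for either. The calls of the higher members held less often than that of m0079-3p. m0113-3p kept its call in 7 of 16 alternatives, m0153-5p in 10 of 16, m0500-3p in 5 of 14 and m0224-5p in 5 of 15.

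**Figure D3:**
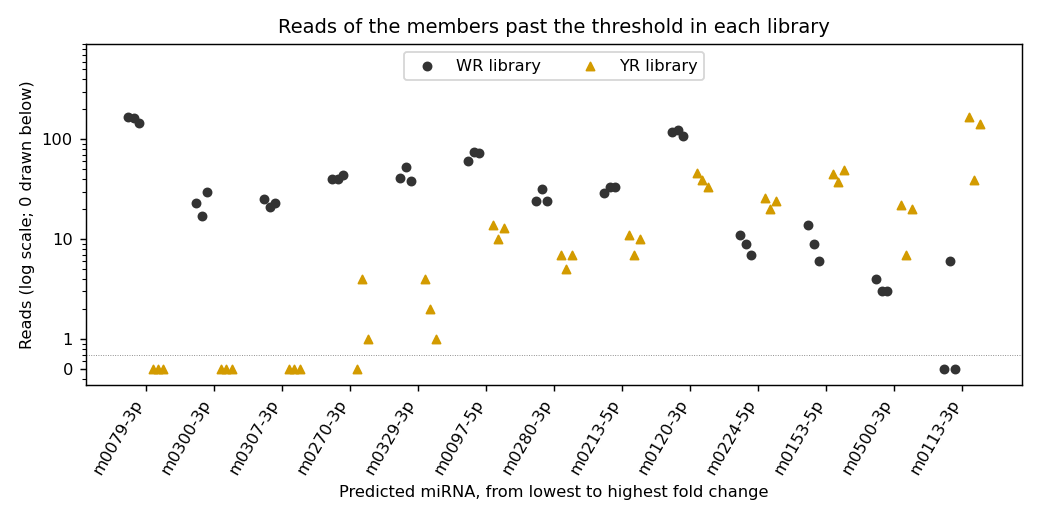
Reads in each library (vertical log axis, 0 drawn below the dotted line) of the 13 members past the threshold, ordered by fold change, with WR as black circles and YR as yellow triangles. m0079-3p, m0300-3p and m0307-3p have 0 reads in all 3 YR libraries, and m0113-3p has 0 in 2 WR libraries.

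Because the level was averaged over both groups, a member could enter through 1 group. In 129 members the mean was at least 1 TPM in both groups, and 5 of these were called. In 32 it reached 1 TPM in WR only (6 called), and in 7 in YR only (2 called). This split was not made over all tested entries, so these counts have no background. Across all 168, 80 fold changes were above 0 and 88 below, with a median log2 fold change of -0.05 against -0.03 over all tested entries. Overlap was judged on TPM, which, unlike these fold changes, carries no TMM scaling. With library totals alone the median log2 fold change was -0.29 in the members and -0.26 in all tested entries. WR and YR values did not overlap in 64 members (38.1%, background 28.3%). In 48 of them every WR library was above every YR library (28.6%, background 19.7%), and in 16 the reverse held (9.52%, background 8.63%). The 5p and 3p arms each gave 24 of the former and 8 of the latter, out of 98 5p and 70 3p members. These shares by arm were not computed over all tested entries, so no difference between arms is read from them.

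**Figure D4:**
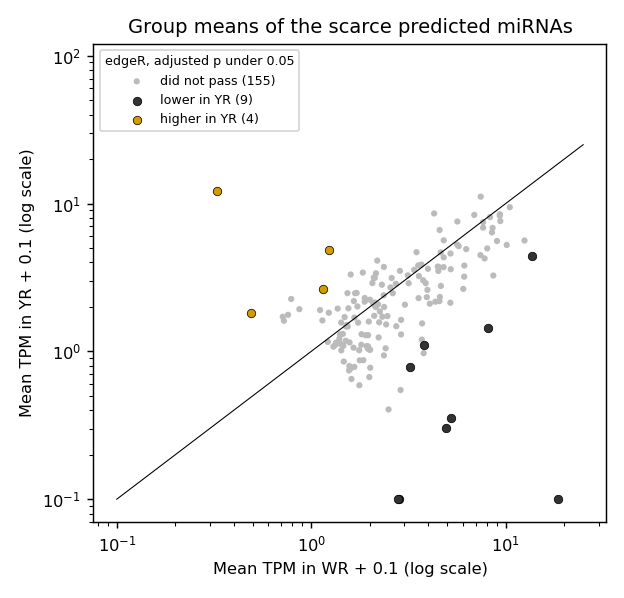
Mean TPM in YR against mean TPM in WR for the 168 scarce predicted miRNAs, both axes on a log scale after adding 0.1, with the line of equality. The 9 lower members (black) lie below the line and the 4 higher ones (yellow) above it, and the points of m0300-3p and m0307-3p, at 2.71 and 2.68 TPM in WR and 0 in YR, nearly coincide.

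The most abundant members besides m0079-3p did not pass the test. m0055-5p had 87, 87 and 94 reads in WR and 71, 103 and 76 in YR, with overlapping groups (log2 fold change 0.08, edgeR adjusted p = 0.882), and its sign turned under several alternatives. m0076-3p had 63, 66 and 60 reads in WR and 94, 99 and 108 in YR (log2 fold change 0.83, SE 0.24, edgeR adjusted p = 0.105). m0092-3p had 137, 95 and 85 reads in WR and 67, 39 and 47 in YR (log2 fold change -0.92, SE 0.25, edgeR adjusted p = 0.0937). In the last 2 the groups did not overlap. m0309-3p, the next of the higher members by p, had 6, 4 and 7 reads in WR and 12, 17 and 16 in YR (log2 fold change 1.55, edgeR adjusted p = 0.0953). At the lower bound, m0431-5p had 13, 6 and 20 reads in WR and 7, 1 and 8 in YR, and m0512-3p had 9, 12 and 17 in WR and 4, 8 and 5 in YR, neither past the threshold (edgeR adjusted p = 0.361 and 0.291).

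In the authors' deposited table, 12 members had an adjusted p under 0.05, 3 higher and 9 lower, where the background was 4.95% of all 1939 entries and 5.88% of the 834 tested here. Of these, 10 were among the 13 called here, or 83.3% of the authors' and 76.9% of those here. m0213-5p, m0120-3p and m0224-5p were called here only, with adjusted p from 0.0784 to 0.170 in the authors' deposited table. That table alone called m0429-3p (0.0296) and m0394-5p (0.0160). m0429-3p had 16, 38 and 18 reads in WR and 2, 5 and 5 in YR, and m0394-5p had 17, 22 and 23 in WR and 4, 0 and 5 in YR.

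A unique sequence did not mean an isolated one. Entries were compared without gaps over at least 18 bases, with a shift of at most 5 and at most 2 mismatches. By this measure 50 members had a relative in the table and 118 had none. Other predicted entries were relatives of 39 members on the same strand and of 13 on the opposite strand, and known entries of 8 and 2. m0224-5p had the most, 15 related sequences. The sources used here do not say how reads that fit several such entries were assigned, so counts of near-identical entries are uncertain.

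Of the 8 members related to a known miRNA, 7 matched a known entry without a mismatch over the overlap, m0071-5p among them through the shorter miR-29-z, so the label of a predicted miRNA applies to them only in part. They are shown with the known sequence to let the ends be compared, and capitals mark bases that differ.
m0057-3p: tgtgttaggcctccgagtctga
miR-9404-y: tgtgttaggcctccgagtctg
m0075-3p: cctggatgtgggttccgtctcc
miR-462-y: cctggatgtgggttccgtct
m0215-5p: ctgtctacacttgctgtgcaga
miR-214-x: tgcctgtctacacttgctgtgc
m0071-5p: actgatttcctctggtgttCaga
miR-29-x: actgatttcctctggtgttTaga
miR-29-z: actgatttcctctggtgttca
m0159-5p: tccttcattccaccggaTCctgtt
miR-205-x: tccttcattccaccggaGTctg
m0057-3p and m0075-3p extend the known entry at the 3′ end, and m0215-5p starts 3 bases into miR-214-x. With positions counted from 1 at the member's 5′ end, m0071-5p differs from miR-29-x by C20T and m0159-5p from miR-205-x by T18G and C19T. The remaining matches were m0105-5p with miR-187-x, m0198-3p with miR-457-y and m0223-3p with miR-98-y, a close relative of let-7.

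None of these 8 passed the test. m0159-5p, which has the seed of the epithelial miR-205, had 10, 23 and 18 reads in WR and 34, 14 and 31 in YR (log2 fold change 0.72, edgeR adjusted p = 0.347). miR-205-x itself had a mean of 35527 TPM and a log2 fold change of 0.17. m0071-5p, with the seed of miR-29-x, had 29, 101 and 103 reads in WR and 55, 39 and 58 in YR (log2 fold change -0.50, edgeR adjusted p = 0.547). miR-29-x had 333, 1372 and 1726 reads in WR and 791, 445 and 777 in YR, so WR1 was the lowest WR library for both. m0057-3p had 100, 71 and 65 reads in WR and 107, 52 and 69 in YR, while miR-9404-y had 200, 206 and 195 in WR and 126, 124 and 92 in YR. The former overlapped between groups (log2 fold change 0.07) and the latter did not (-0.66, edgeR adjusted p = 0.190).

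On the opposite strand, m0073-5p is the reverse complement of miR-100-y over 21 bases with 0 mismatches.
m0073-5p: atacctatagacacgagcttgt
miR-100-y: caagctcgtgtctataggtatg
It had 71, 62 and 61 reads in WR and 69, 47 and 72 in YR, and miR-100-y had 290, 229 and 230 in WR and 263, 196 and 227 in YR. The groups overlapped for both.

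Few members shared a seed with another member. Seeds were not counted against other predicted entries, some of which share one, as m0184-5p does with m0224-5p. The 168 members held 162 seeds, and 18 members (10.7%) had the seed of a known entry, against 20.8% of the abundant entries of unique sequence, 13.1% of entries of repeated sequence and 6.13% of those under 1 TPM. For 3 members that known entry had a mean of at least 100 TPM, namely m0071-5p, m0159-5p and m0065-3p. The last has the seed of miR-23-y and 57, 69 and 69 reads in WR and 81, 56 and 67 in YR (log2 fold change 0.19, edgeR adjusted p = 0.593), a value that turned sign with library totals alone. Over its length m0065-3p matches the known miR-23-z but for a missing T. The comparison without gaps does not allow for that, so m0065-3p was counted as without a relative.

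A further comparison among the members found that 11 shared a seed with another member, in 5 groups. The group of 3 has the seed AAGGCAC, which is also that of miR-124-y, a miRNA known for its high level in neurons.
m0095-3p: cAAGGCACacttcaccagcatgt
m0238-3p: cAAGGCACacttcaccagcatg
m0197-3p: cAAGGCACacttaaccagcatt
m0095-3p had 77, 71 and 90 reads in WR and 85, 78 and 64 in YR. m0238-3p had 48, 51 and 46 in WR and 50, 48 and 39 in YR. m0197-3p had 96, 66 and 76 in WR and 66, 71 and 67 in YR. All 3 overlapped between groups. In the pair with the seed TAGTGCA, m0147-5p had 39, 36 and 40 reads in WR and 14, 19 and 24 in YR, and m0262-5p had 24, 13 and 11 in WR and 5, 10 and 10 in YR. By TPM the groups were apart for m0147-5p and overlapped for m0262-5p, and neither passed the test. In the pair with TGCTGGT, m0153-5p was called higher and m0286-5p overlapped, with 13, 13 and 8 reads in WR and 13, 17 and 9 in YR.

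Pairs of near-identical sequences included some whose values differed between WR and YR in opposite ways. The members formed 78 same-strand pairs with predicted entries, and in 11 of these neither sequence overlapped between WR and YR. In 5 of the 11 both differed the same way and in 6 in opposite ways. As 38.1% of members and 28.3% of all tested entries did not overlap, the counts of such pairs are not read as particular to near-identical sequences. The 6 were picked for that pattern, so their values are a description. They are printed with the bases that differ within the overlap in capitals. Bases beyond the overlap are not marked.
m0113-3p: gcgacccacTcatgatttcagA
m0307-3p: gcgacccacCcatgatttcagT
m0300-3p: CactatgtagGgaatagggcac
m0325-3p: agttGactatgtagAgaatagg
m0224-5p: ttccctatgtagtgcacTattt
m0184-5p: ttccctatgtagtgcacCattt
m0344-5p: ctaaagcatcgtGgcactaaga
m0813-5p: ctaaagcatcgtAgcactaaga
m0439-5p: ttccctatatcgtgcactAcGt
m0739-5p: attccctatatcgtgcactTcT
With positions counted from 1 at the 5′ end of the first of each pair, m0113-3p and m0307-3p differ by T10C and A22T, both outside the shared seed. m0113-3p was nearly absent from WR and reached 166 reads in YR, and m0307-3p ran from 21 to 25 reads in WR and was at 0 in YR.

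The other pairs had lower counts. m0300-3p, at 0 in YR, differs by C1G and G11A from m0325-3p over an overlap of 18 bases. m0325-3p starts 4 bases earlier, so the 2 have unlike seeds and ends. m0325-3p had 9, 8 and 9 reads in WR and 17, 13 and 20 in YR (log2 fold change 1.07, edgeR adjusted p = 0.105). m0224-5p, higher in YR, differs by T18C from m0184-5p, an entry of repeated sequence with 18, 40 and 35 reads in WR and 11, 13 and 14 in YR (log2 fold change -1.13, edgeR adjusted p = 0.192). It differs by T10C and G12T from m0564-5p, which had 9, 7 and 13 reads in WR and 2, 0 and 1 in YR. In each of these pairs 1 sequence was higher in every WR library and the other in every YR library. m0344-5p had 30, 22 and 41 reads in WR and 9, 14 and 6 in YR (log2 fold change -1.50, edgeR adjusted p = 0.146), and its G13A relative m0813-5p had 0 in WR and 7, 2 and 4 in YR. m0439-5p had 11, 19 and 19 reads in WR and 10, 3 and 3 in YR (log2 fold change -1.52, edgeR adjusted p = 0.175). m0739-5p, which starts 1 base earlier and differs by A19T and G21T over 21 bases, had 0 in WR and 5, 6 and 4 in YR.

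**Figure D5:**
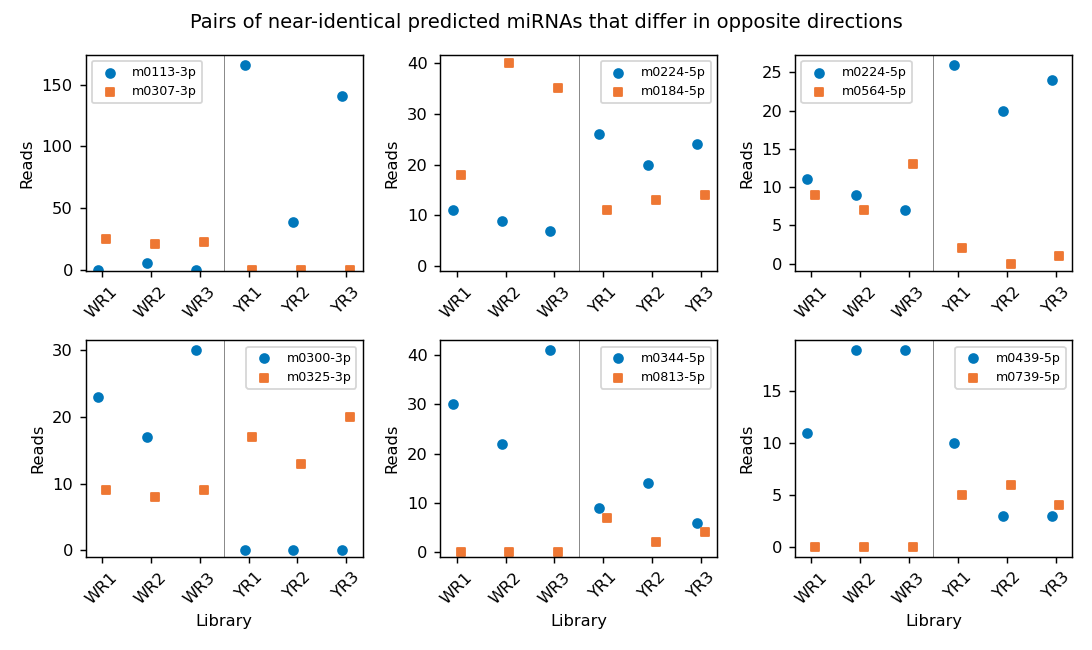
Reads in each library (vertical axis) for the 6 pairs of near-identical predicted miRNAs that differed in opposite ways, 1 panel per pair, with the member as blue circles and its relative as orange squares. In the first panel m0113-3p reaches 166 reads in YR where m0307-3p has 0.

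Several of these sequences share the word CTATGTAG, noticed after their values were seen. The word or its reverse complement CTACATAG stood in 5 of 168 members (2.98%), in 56 of 1230 predicted entries (4.55%) and in 0 of 709 known entries. The 56 entries hold 32 distinct sequences, as 39 of them are entries of repeated sequence. Among the other predicted entries of unique sequence, the word stood in 12 of 489 under 1 TPM (2.45%) and in 0 of 24 abundant ones. The 5 members are printed with the word in capitals.
m0133-5p: ccctaatccCTACATAGtgcact
m0224-5p: ttccCTATGTAGtgcactattt
m0260-5p: atattctCTATGTAGtgccct
m0325-3p: agttgaCTATGTAGagaatagg
m0300-3p: caCTATGTAGggaatagggcac
Their directions were mixed. m0224-5p and m0325-3p were above WR in every YR library, m0300-3p was below, and m0133-5p (23, 52 and 43 against 32, 19 and 23 reads) and m0260-5p (18, 14 and 10 against 15, 13 and 12 reads) overlapped.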

How the data were processed

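Small RNA libraries of 3 WR and 3 YR samples were prepared from Trizol-extracted total RNA with adapters at both ends and sequenced on an Illumina HiSeq Xten, per the labels' protocols. The authors deposited 1 table with a whole-number count per mature miRNA and library. They also deposited a scaled value named TPM, treated as a score because its columns sum to more than the scale its name implies, per the file headers and values. A count of 0 has a placeholder TPM of 0.01, set to 0 here. The authors deposited a log2 fold change and, raw and adjusted, a p-value for each entry. Not given in the sources used here are the test behind these, the aligner, the miRNA database and the genome build. Coordinates were not derived, for want of a genome.

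Counts were tested with edgeR 4.0.16 (R 4.3.3): TMM scaling, library sizes from table totals, quasi-likelihood test of YR against WR without a replicate term, and Benjamini-Hochberg adjustment over the 834 entries with a mean of at least 1 TPM. All 168 members are among these. The alternatives used other scalings, filters and entries tested, DESeq2 1.42.0, limma 3.58.1 on log2(TPM + 1), a replicate block, and each library left out in turn. Data were simulated from the 834 entries, with 200 changed in each of 5 runs. The test recovered 3% of 2-fold and 54.8% of 4-fold changes among the scarce entries, and 4.63% of its calls were false. The simulation took the fitted dispersions and independent libraries, with none that stood apart as WR1 did. These rates therefore may not hold for the real libraries. Replicates of a group differed beyond counting noise, with a chi-square per degree of freedom of 78.9 to 699.

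Members named are those past the threshold, the next by p where fewer than 5 of a direction passed, those at 0 in a group, the 4 most abundant, those at the bounds, and those with the seed of a known entry of at least 100 TPM. Members named for their relatives, seeds, the shared word or the authors' calls were chosen after their values were seen. The members and lists were chosen with earlier results of these data known.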

Additional observations from a re-analysis of the deposited data

How the results depend on the processing

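The number of members and the number read in every library changed by less than 1.5 times under the alternatives run, with 139 read at least 5 times in each library. The count of called members, 13 by edgeR, was 8 when testing began at 2 TPM (90 members) and ranged from 0 to 28 with each library left out. Over all tested entries the calls were 44 by edgeR, 25 from 2 TPM, and from 1 to 118 with each library left out. The lower members, 9 by edgeR, were 14 with DESeq2 and ranged from 0 to 23 with each library left out. The higher members, 4 by edgeR, were 1 with library totals alone, 2 without a filter on low counts, 1 at a mean of at least 2 TPM, 2 with limma and 1 with 1 entry per distinct sequence, and ranged from 0 to 5 with each library left out. The cause was not tested. Same-numbered libraries had correlations of deviations of 0.260, -0.104 and 0.271, and libraries of unlike number ran from -0.378 to 0.144. So few values cannot settle whether the numbers pair the samples. With a replicate block edgeR called 0 members, 0 higher and 0 lower (40 at an unadjusted p under 0.05), and 2 entries in all. Without the 5 most abundant entries the members' share of counts was 0.107% in WR and 0.0905% in YR. The log2 fold change of m0055-5p turned to -0.15 with library totals alone, -0.054 at a mean of at least 2 TPM, -0.18 with limma and -0.059 with 1 entry per distinct sequence, and ranged from -0.24 to 0.29 with each library left out. That of m0065-3p turned to -0.029 with library totals alone and -0.030 with limma, and ranged from -0.075 to 0.29 with each library left out. Over the members named by the rule, 252 values kept direction and side of the threshold, 77 lost it, 2 gained it and 10 turned sign.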
